A study of Mus musculus with 4 samples.

Results

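The colony-stimulating factors are secreted proteins that control how myeloid cells survive, divide and mature. Macrophage colony-stimulating factor (Csf1) binds the receptor tyrosine kinase Csf1r, on which most tissue macrophages depend. Granulocyte-macrophage colony-stimulating factor (Csf2) binds an alpha chain, Csf2ra, paired with the beta chain Csf2rb, and granulocyte colony-stimulating factor (Csf3) binds Csf3r, a receptor best known from neutrophils. These 3 ligand genes and 5 receptor genes, among them Csf2rb2, a second beta chain gene of the mouse that serves interleukin 3, were examined in chromatin maps of macrophages. They are 8 of 21887 protein-coding genes in the RefSeq table of the mouse build mm10, chosen by name. Every peak that overlapped 1 of these genes or lay within 2500 bp of it was taken.

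Chromatin immunoprecipitation with sequencing was carried out for H3K4me3, a histone mark found at the promoters of active and poised genes, and for H3K9me3, a mark of silenced chromatin. The macrophages were elicited in the peritoneum with thioglycollate broth and cultured, and came from 8-week-old C57BL/6 mice. Their genotype was Sun-/-, here called Sun knockout, or wild type, and the labels name neither the exact Sun gene removed nor the number of animals in a library. There was 1 library for each mark and genotype, 4 in all, so no difference between the genotypes has a replicate check and no test was made. All intervals are 95% intervals for counting error alone. Because each library pools many cells, fewer cells carrying a mark and less of it in each cell cannot be told apart.

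After duplicate removal each library held between 26748289 and 29681491 tags, and 28505 H3K4me3 peaks were listed in the knockout against 31398 in the wild type. H3K4me3 peaks held 14.0% of these tags in the knockout and 17.8% in the wild type. For H3K9me3 the shares were only 1.62% in the knockout and 1.69% in the wild type. Of 10 macrophage marker genes, 9 had H3K4me3 in both genotypes, and Msr1 had a peak of 36 tags in the knockout alone. Markers of other cells were marked in part. Of 8 neutrophil markers, S100a8 and Camp had a peak in the knockout alone and Mpo and Elane in the wild type alone, with 77 tags in the knockout and 205 in the wild type over the list, while Cxcr2, Ngp, Ltf and S100a9 had none. Of 8 mesothelial and fibroblast markers, 4 (Upk3b, Krt8, Krt19 and Col1a2) had a peak in wild-type cells alone and Msln had none. The other 3 (Wt1, Col1a1 and Pdgfra) had one in both genotypes. They held 207, 140 and 451 tags in the knockout and 321, 199 and 591 in the wild type. The list held 798 tags in the knockout and 1394 in the wild type. The 8 T and NK cell markers held 328 tags in the knockout and 417 in the wild type, with no peak at Cd3e, Cd8a, Cd28, Ncr1 and Gzma, and the 6 B cell markers held 639 and 911 tags in knockout and wild type, with none at Cd79b and Ms4a1, for example. Siglecf alone of 8 eosinophil and mast cell markers was marked, with 75 tags in the knockout and 32 in the wild type. The part of such cells in the results below was not tested.

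All 8 genes had an H3K4me3 peak in the knockout library, against 6 in the wild-type library, where 69.9% of protein-coding genes had one in the knockout and 71.3% in the wild type. The 2 genes marked in the knockout alone were Csf2 and Csf3, both ligand genes, and 0 were marked in the wild type alone. The Csf2 call rests on the window: within 0 or 1000 bp of the genes 7 were marked in the knockout and 6 in the wild type, since the Csf2 peak lies 1141 bp outside the gene. With a score (-10 times log10 of the caller's p-value) of at least 100 they were also 7 and 6, without Csf3. Over all protein-coding genes 68.5% were marked in both genotypes, 1.45% in the knockout alone and 2.83% in the wild type alone. Counted as peaks, the genes held 13 in the knockout and 8 in the wild type. Of the 13 knockout peaks 5 had no wild-type partner, where 19.8% of all knockout peaks had none, and 0 of the 8 wild-type peaks lacked a knockout partner, where 28.1% of all wild-type peaks did. The 5 peaks lay at Csf1 (2 peaks), Csf2, Csf3 and Csf2rb. They were weak: at that score only the Csf2 peak was left, and in that class 1.89% of the knockout peaks had no partner.

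**Figure D1:**
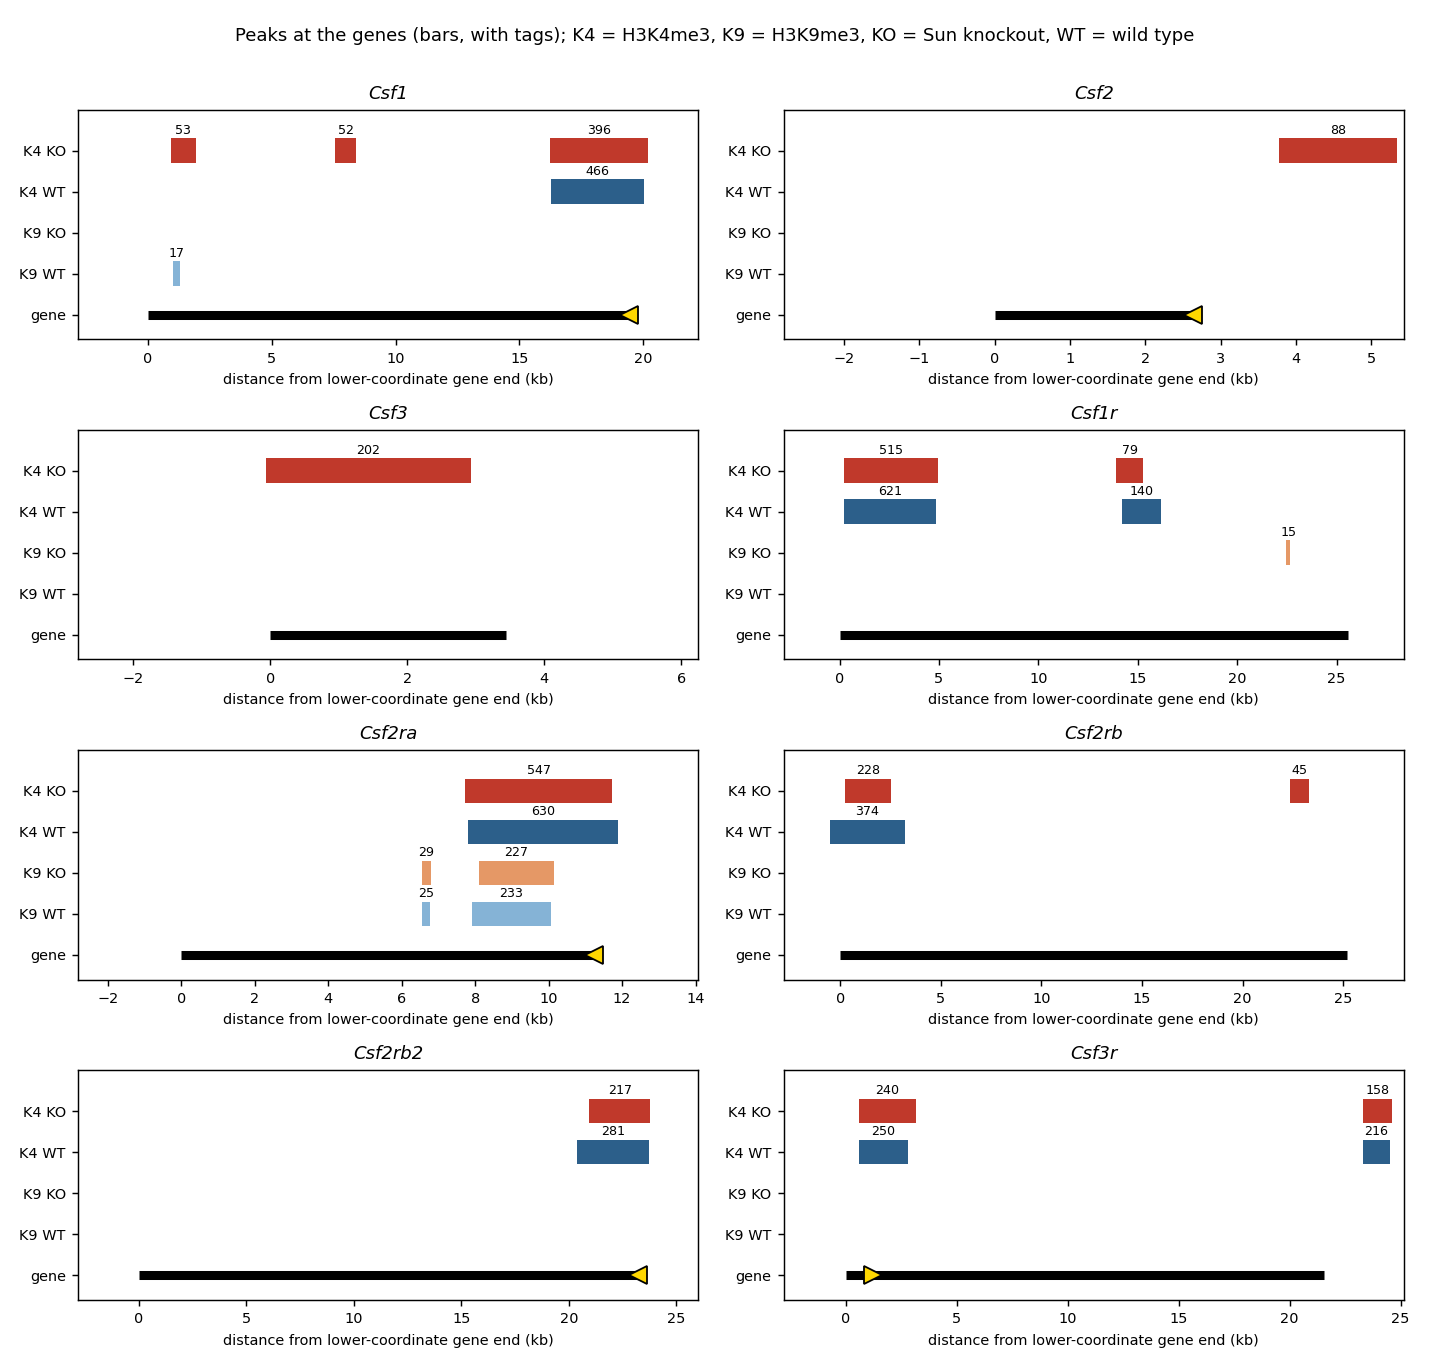
Peaks at each gene, as bars with their tag counts, for H3K4me3 and H3K9me3 in Sun knockout and wild type. The horizontal axis is the distance in kb from the gene end with the lower coordinate, the black bar is the gene, and a yellow triangle marks the transcription start and its direction for the 5 genes that have one in the promoter table. Csf2 and Csf3 have an H3K4me3 peak in the knockout row only, and at Csf2ra the H3K9me3 peaks of 227 and 233 tags lie under the H3K4me3 peaks.

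Csf1 on chromosome 3 (107741048 to 107760469) was the one ligand gene with H3K4me3 in both genotypes. Its promoter and that of Csf2 are shown because the first was fully covered by H3K4me3 and the second was not covered in either genotype. Both are the 250 bases before the start on the minus strand, 5′ to 3′, from RefSeq in build mm10, at chr3:107760470-107760719 and chr11:54249900-54250149. Capitals mark matches on either strand to the searched motifs.
Csf1: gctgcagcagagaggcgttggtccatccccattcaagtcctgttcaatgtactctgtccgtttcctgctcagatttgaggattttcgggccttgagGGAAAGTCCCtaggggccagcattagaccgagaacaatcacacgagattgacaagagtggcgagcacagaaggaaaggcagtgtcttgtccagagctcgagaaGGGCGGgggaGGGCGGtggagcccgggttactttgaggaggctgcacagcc
Csf2: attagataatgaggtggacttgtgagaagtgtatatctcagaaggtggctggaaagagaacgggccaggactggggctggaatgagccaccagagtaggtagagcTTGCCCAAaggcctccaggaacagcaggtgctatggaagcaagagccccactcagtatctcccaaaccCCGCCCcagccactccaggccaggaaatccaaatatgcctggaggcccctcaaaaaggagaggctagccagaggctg
In Csf1 the capitals mark 1 match to an NF-kB motif at -154 on the reverse strand, and 2 matches to the Sp1 motif GGGCGG at -51 and -41. In Csf2 they mark 1 match to the C/EBP motif TTGCNNAA at -145 and 1 to GGGCGG at -77 on the reverse strand. Of 32851 promoter windows of this length in the table, 0.356% held the NF-kB motif, 32.7% the Sp1 motif and 9.56% the C/EBP motif. The Csf1 window had 10 CpG dinucleotides, more than 62.2% of the windows, and the Csf2 window had 2, more than 18.8%. The TATA box motif TATAAA, held by 12.4% of windows, was in neither. The same was true of the Runx motif TGTGGT, held by 14.0%. Neither window had the AP-1 motif TGANTCA, held by 6.75%. The core motif of PU.1, GAGGAA, held by 23.3%, was in neither as well.

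The Csf1 start lay inside an H3K4me3 peak of 396 tags over 3936 bp in the knockout and of 466 tags over 3775 bp in the wild type. These peaks reached from -754 to 3181 bp around the start in the knockout and from -610 to 3164 bp in the wild type, so their extents nearly coincided. The log2 ratio of tags, knockout over wild type, was 0.25 (0.06 to 0.45) relative to the median of 18896 regions called in both genotypes. That median region held 0.712 times as many tags in the knockout. With scaling to filtered tags (those left after duplicate removal) instead, the Csf1 ratio was -0.08, so its sign depended on the scaling.

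Further inside Csf1 the knockout list had peaks of 53 and 52 tags, from 17484 to 18490 bp and from 11009 to 11855 bp after the start, and the wild-type list had neither. The farther one also lay over the only H3K9me3 peak of the gene, 17 tags over 274 bp in the wild type (107742079 to 107742352), none being listed in the knockout. All 274 bp of that peak fell within the bounds of the knockout H3K4me3 peak. Every peak listed at Csf1, of either mark and including those at its start, also overlapped the gene Gm40121. In the comparisons by width, tags were not scaled between the libraries. Wild-type H3K4me3 peaks of like width, within 10% of 1007 bp, held at least 37 tags, and 10.4% of them held fewer than 53. Of those within 10% of 847 bp, the width of the nearer peak, 39.4% held fewer than 52, so that peak was well within the range the caller took in the wild type.

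Csf2 on chromosome 11 (54247270 to 54249899) had a knockout H3K4me3 peak of 88 tags (70.6 to 108) over 1577 bp. The peak lay upstream of the gene, from -2717 to -1141 bp, within the long noncoding RNA gene Gm12223, and left the promoter window uncovered. No wild-type peak was listed nearer than 13766 bp. Its score was 101 and its fold enrichment over the caller's local background 5.64, both authors' values, higher than 41.5% and 28.2% of the knockout peaks. A wild-type peak of like width held at least 67 tags, and 2.98% of 3118 such peaks held fewer than 88. These tags were not scaled, and scaled to the median region the knockout peak would stand higher. The wild-type tag level at this place is unknown, since the lists give tags inside peaks only.

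The surroundings of Csf2 were marked in few places. Another region of Gm12223, at 54222993 to 54224511, held 84 tags in the knockout and 45 in the wild type, a ratio of 1.39 (0.85 to 1.95). Its peak reached from 54222993 to 54224501 in the knockout and from 54223628 to 54224511 in the wild type. The higher tag count thus went with a wider knockout peak. Il3, the interleukin 3 gene next to Csf2, had a knockout peak of 25 tags and no wild-type peak. A wild-type peak of 36 tags from 54236595 had no knockout counterpart within 25 kb of Csf2. No H3K9me3 peak was listed at Csf2 or within 25 kb in either genotype.

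Csf3 on chromosome 11 (98700183 to 98703631) had a knockout H3K4me3 peak of 202 tags (175 to 232) from 98700121 to 98703110, over most of the gene. It also overlapped the long noncoding RNA gene Gm38985 and came within 2500 bp of Med24, a Mediator subunit gene. The peak was wider than 95.7% of the knockout peaks and held more tags than 77.9% of them, but its score of 64.7 exceeded 21.3% and its fold enrichment of 3.3 only 0.677%. A wild-type peak was first listed 5758 bp away. Among 1150 wild-type peaks within 10% of its width of 2990 bp the fewest tags were 158, and 1.83% had fewer than 202. Thus the knockout value, taken without scaling, was near the lowest that the caller took in the wild type at such a width. The median region called in both genotypes held 0.712 times as many tags in the knockout. Scaled to that region, the knockout value would stand higher among the wild-type peaks.

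The genes beside Csf3 held no more H3K4me3 tags in the knockout. Psmd3, a proteasome subunit gene, had 207 tags in the knockout and 292 in the wild type, a ratio of -0.01 (-0.27 to 0.25) to the median region. A region inside Med24 had 151 tags in the knockout and 254 in the wild type, at -0.26 (-0.56 to 0.04), and that at its far end 72 and 104 tags in knockout and wild type, at -0.04 (-0.50 to 0.41). Of 317 protein-coding genes marked in the knockout alone, Csf3 ranked 12th and Csf2 25th by tags, where the median was 28 tags. Nearest to Csf3 over the 4 libraries, by Euclidean distance of log2(1 + tags per 1000000 filtered tags), were Amigo3 (207 knockout tags), Igfals (190) and Apobec1 (218), at distances of 0.03, 0.08 and 0.10. These also had 0 peaks in the other 3 libraries.

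**Figure D2:**
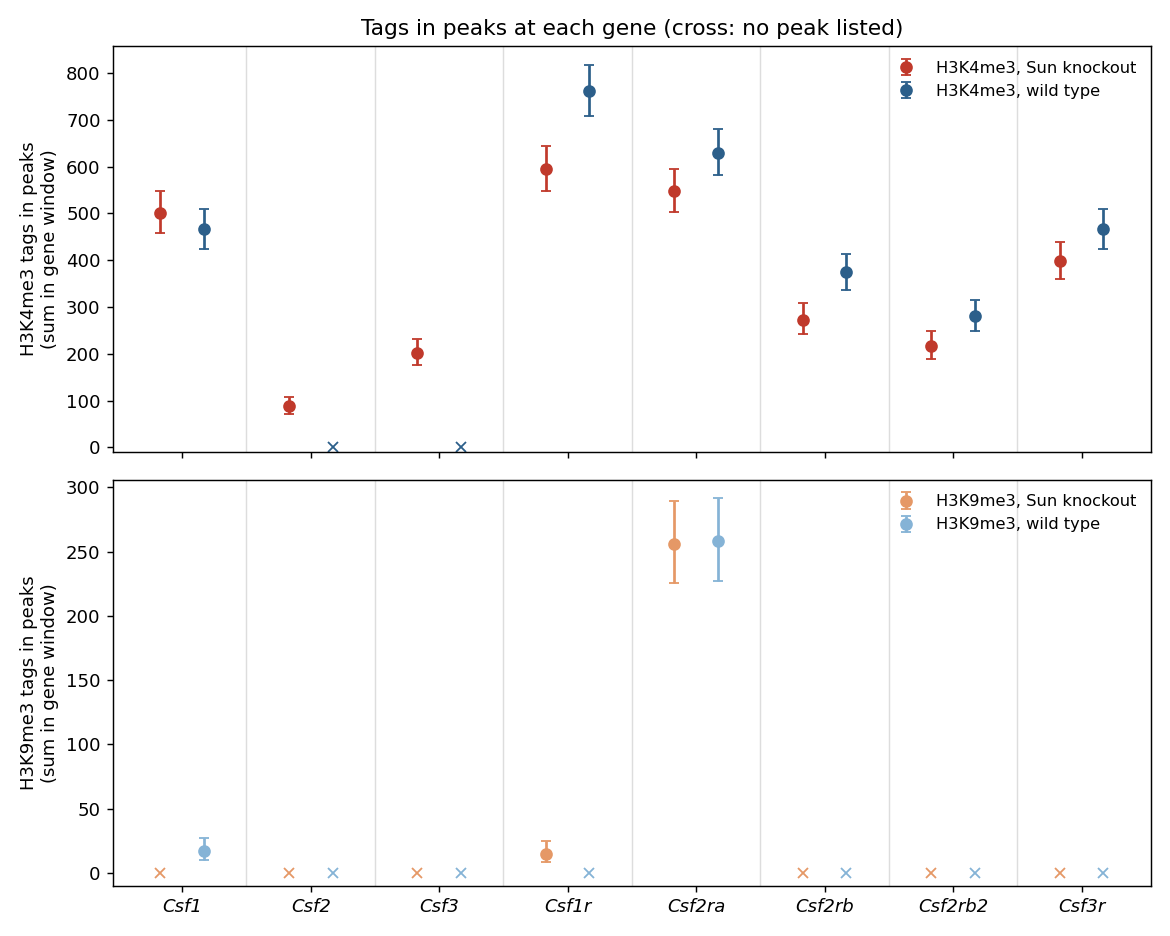
Tags in listed peaks at each gene (vertical axis, sum in the gene window) for H3K4me3 above and H3K9me3 below, Sun knockout left of wild type. Error bars are exact Poisson 95% intervals and a cross means that no peak was listed, which does not mean 0 tags. Csf1r and Csf2ra hold the most H3K4me3 tags in both genotypes, and only Csf2ra holds over 200 H3K9me3 tags.

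Each of the 5 receptor genes had H3K4me3 in both libraries. Csf1r on chromosome 18 (61105572 to 61131139), the receptor gene of Csf1, had the widest of these peaks, 4719 bp in the knockout and 4592 bp in the wild type. It held 515 tags in the knockout and 621 in the wild type. Its left edge lay 231 bp inside the gene in the knockout and 247 bp inside in the wild type. The ratio was 0.22 (0.05 to 0.39) to the median region and -0.12 when scaled to filtered tags. In tags per kb, centred on the 17114 pairs of peaks that matched in place, it was 0.03 (-0.14 to 0.20).

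A second Csf1r peak lay inside the gene over the long noncoding RNA gene Gm52352. It held 79 tags over 1347 bp in the knockout and 140 tags over 1957 bp in the wild type. Its ratio was -0.34 (-0.75 to 0.07), and 0.05 (-0.36 to 0.46) in tags per kb, so the lower tag count went with a narrower knockout peak. An H3K9me3 peak of 15 tags was listed inside the gene in the knockout alone, with a score of 51.9. Wild-type H3K9me3 peaks of like width held at least 13 tags. The genes nearest to Csf1r by the same distance were Ptger4, a prostaglandin E2 receptor gene, Trim14 and Fzd5, a Wnt receptor gene, at 0.04, 0.06 and 0.07. Ptger4 held 588 and 16 tags (H3K4me3 and H3K9me3) in the knockout, and 772 H3K4me3 tags with no H3K9me3 peak in the wild type.

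Csf2ra on chromosome 19 (61217191 to 61228461) had both marks at one place in both genotypes. It is shown with Csf2rb2 because their promoters, again 250 bases on the minus strand from RefSeq, at chr19:61228419-61228668 and chr15:78305722-78305971, differ widely in CpG content although H3K4me3 covered each of them completely in both genotypes.
Csf2ra: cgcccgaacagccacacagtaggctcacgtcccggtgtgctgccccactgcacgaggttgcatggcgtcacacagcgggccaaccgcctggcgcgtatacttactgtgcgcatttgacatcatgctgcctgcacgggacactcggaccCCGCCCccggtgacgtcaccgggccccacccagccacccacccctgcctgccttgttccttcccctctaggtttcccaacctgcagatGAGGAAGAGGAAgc
Csf2rb2: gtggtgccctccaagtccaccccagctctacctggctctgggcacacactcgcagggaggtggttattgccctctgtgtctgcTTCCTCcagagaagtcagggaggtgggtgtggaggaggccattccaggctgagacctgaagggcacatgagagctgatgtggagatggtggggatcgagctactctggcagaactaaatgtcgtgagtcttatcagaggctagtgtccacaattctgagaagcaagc
The capitals mark GAGGAA, the core bound by the macrophage factor PU.1, at -14 and -8 in Csf2ra and at -167 on the reverse strand in Csf2rb2, and GGGCGG at -102 on the reverse strand in Csf2ra. The Csf2ra window had 17 CpG dinucleotides, more than 76.5% of all windows, and the Csf2rb2 window had 3, more than 29.0%. The Csf3r window, with 6 CpG dinucleotides, also held 1 GAGGAA, at -86. In all, H3K4me3 covered 4 of the 5 promoter windows in both genotypes, and Csf2 was the exception. Csf2, with 2 CpG dinucleotides, was thus close in CpG content to the covered Csf2rb2 window.

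At Csf2ra the H3K4me3 peak held 547 tags over 3988 bp in the knockout and 630 tags over 4108 bp in the wild type. The ratio was 0.29 (0.12 to 0.45) to the median region, -0.05 when scaled to filtered tags, and 0.18 (0.01 to 0.35) in tags per kb of the matched peaks. Within its bounds lay an H3K9me3 peak of 227 tags over 2021 bp in the knockout and of 233 tags over 2151 bp in the wild type. That peak began 1093 bp after the start in the knockout and 1162 bp after it in the wild type, and so left the promoter window free. A second, short H3K9me3 peak farther inside the gene held 29 tags in the knockout and 25 in the wild type.

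The H3K9me3 peak of Csf2ra stood near the top of its list by size. It was wider than 99.7% of the knockout peaks and 99.8% of the wild-type peaks, with more tags than 99.4% of the knockout list and 99.6% of the wild-type list. By fold enrichment, 4.98 in the knockout and 6.07 in the wild type, it exceeded only 3.70% of the knockout list and 6.67% of the wild-type list. Peaks of both marks were called without input, so background at this place was not measured separately. Its ratio was -0.17 (-0.44 to 0.10) to the median of 1137 H3K9me3 regions. Regions of this mark were at least 2-fold higher in the knockout in 10.6% of cases and 2-fold lower in 5.10%. Overlap with H3K4me3 was found for 33.7% of all H3K9me3 peaks in the knockout and 22.4% in the wild type.

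Il3ra, the alpha chain gene of the interleukin 3 receptor, was looked up after its values were seen. Its H3K4me3 peak on chromosome 14 held 276 tags in the knockout and 365 in the wild type. An H3K9me3 peak that overlapped it held 192 tags over 1964 bp in the knockout and 54 tags over 555 bp in the wild type. Farther along, H3K9me3 peaks of nearly the same extent held 39 and 41 tags in the knockout (2 adjoining peaks) and 80 tags in the wild type (1 peak).

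Csf2rb and Csf2rb2 lie side by side on chromosome 15 (78325800 to 78351001 and 78282507 to 78305721). They are close relatives in sequence, and how tags matching both were placed is not given in the sources used here, so their values are uncertain to that extent. Csf2rb, the beta chain shared by the receptors for Csf2, interleukin 3 and interleukin 5, held 228 tags over 2281 bp in the knockout and 374 tags over 3711 bp in the wild type. Its ratio was -0.22 (-0.47 to 0.02) in tags but 0.33 (0.08 to 0.57) in tags per kb, so the direction depended on the peak's width. Csf2rb2 held 217 tags over 2834 bp in the knockout and 281 tags over 3368 bp in the wild type, at 0.12 (-0.15 to 0.38) in tags and 0.22 (-0.05 to 0.48) in tags per kb. At both genes the knockout peak was the narrower. A knockout peak of 45 tags in the last part of Csf2rb (78348144 to 78349088), over the microRNA gene Mir7676-2, had no wild-type partner, and no peak was listed over Mir7676-1 inside Csf2rb2.

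Csf3r on chromosome 4 (126023441 to 126044975) held 240 tags over 2539 bp around its start in the knockout and 250 tags over 2221 bp in the wild type. Its ratio was the highest of the 8 regions, 0.43 (0.17 to 0.69), but 0.09 when scaled to filtered tags and 0.09 (-0.17 to 0.35) in tags per kb. The knockout peak was the wider. In both genotypes the peak around the start also overlapped the gene Gm32908. A second peak, 1769 bp beyond the gene in the knockout and 1757 bp beyond it in the wild type, overlapped Mrps15, a mitochondrial ribosomal protein gene. It held 158 tags in the knockout and 216 in the wild type, at 0.04 (-0.27 to 0.34).

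**Figure D3:**
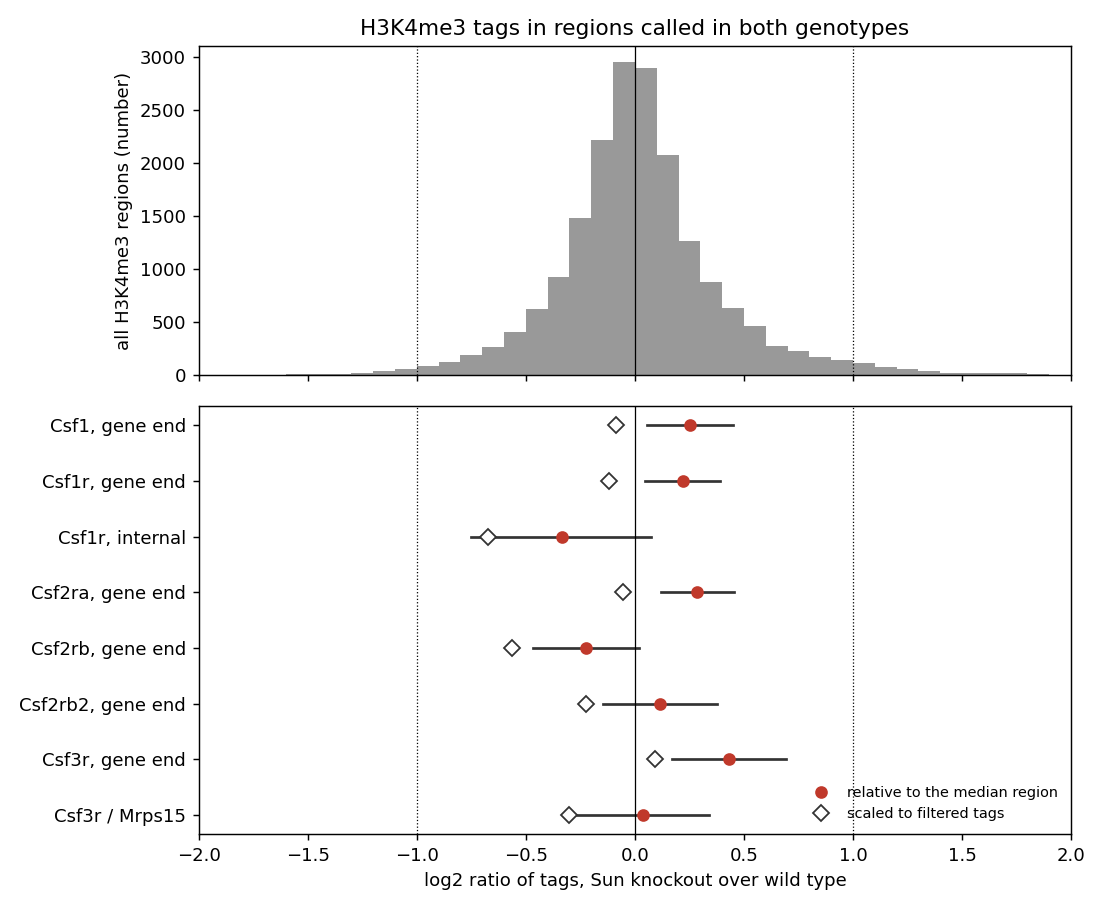
Log2 ratios of H3K4me3 tags, Sun knockout over wild type, for all regions called in both genotypes (histogram above) and for the 8 regions at these genes (below). Red points are relative to the median region with 95% counting intervals, diamonds are scaled to filtered tags, dotted lines mark 2-fold, and 16 of 18896 regions lie beyond the axis. The 8 points lie between -0.34 and 0.43, and 7 of the diamonds lie below 0.

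None of the 8 regions called in both genotypes reached a 2-fold difference, either in tags or, over the matched peaks, in tags per kb. Of all regions 2.21% were at least 2-fold higher and 0.937% at least 2-fold lower in the knockout, and of the matched pairs 0.0409% had at least 2-fold more tags per kb in the knockout and 0.0117% at least 2-fold fewer. Relative to the median region 6 of the 8 lay above 0 and 2 below, with a median of 0.17. Counting intervals left out 0 for 4 of them, Csf1, Csf1r, Csf2ra and Csf3r, and for 27.0% of all regions. Under scaling to filtered tags the same 4 lay between -0.12 and 0.09.

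Levels per length put the genes in a similar order in both genotypes. In tags per kb of the most tag-rich peak, the knockout values were 137 for Csf2ra, 109 for Csf1r, 101 for Csf1, 99.96 for Csf2rb, 94.5 for Csf3r, 76.6 for Csf2rb2, 67.6 for Csf3 and 55.8 for Csf2. The wild-type values were 153 for Csf2ra, 135 for Csf1r, 123 for Csf1, 113 for Csf3r, 101 for Csf2rb and 83.4 for Csf2rb2. Only Csf2ra and Csf1r in the knockout, among neighbours in these orders, had counting intervals that did not overlap (126 to 149 and 99.9 to 119 tags per kb).

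Most of these peaks were wide. The genes were chosen by name, but with earlier results of these data known. The most tag-rich H3K4me3 peak of each gene had a median width of 2912 bp over 8 genes in the knockout and 3743 bp over 6 genes in the wild type, where the median peak of the list had 1006 bp in the knockout and 1050 bp in the wild type. Each was wider than 74.98 to 99.3% of its list in the knockout and than 86.6 to 98.9% in the wild type. By fold enrichment they exceeded a median of 19.5% of the knockout list and 27.3% of the wild-type list. Csf1 and Csf3r were the exceptions, above 58.7 to 64.8% of their lists. Taking the most tag-rich peak itself favours wide peaks: over all protein-coding genes with a peak, that peak had a median width of 1507 bp in the knockout and 1696 bp in the wild type. Against those, the peaks of the colony-stimulating factor and receptor genes were wider than 53.6 to 98.2% in the knockout, with Csf2 lowest, and than 70.5 to 97.2% in the wild type, with Csf3r lowest. Among peaks within 10% of their own width, their fold enrichment exceeded anywhere from 1.21% (Csf3) to 93.9% (Csf1) in the knockout and from 10.96% (Csf2rb2) to 84.5% (Csf1) in the wild type. Fold enrichment at a given width thus differed widely among these genes.

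**Figure D4:**
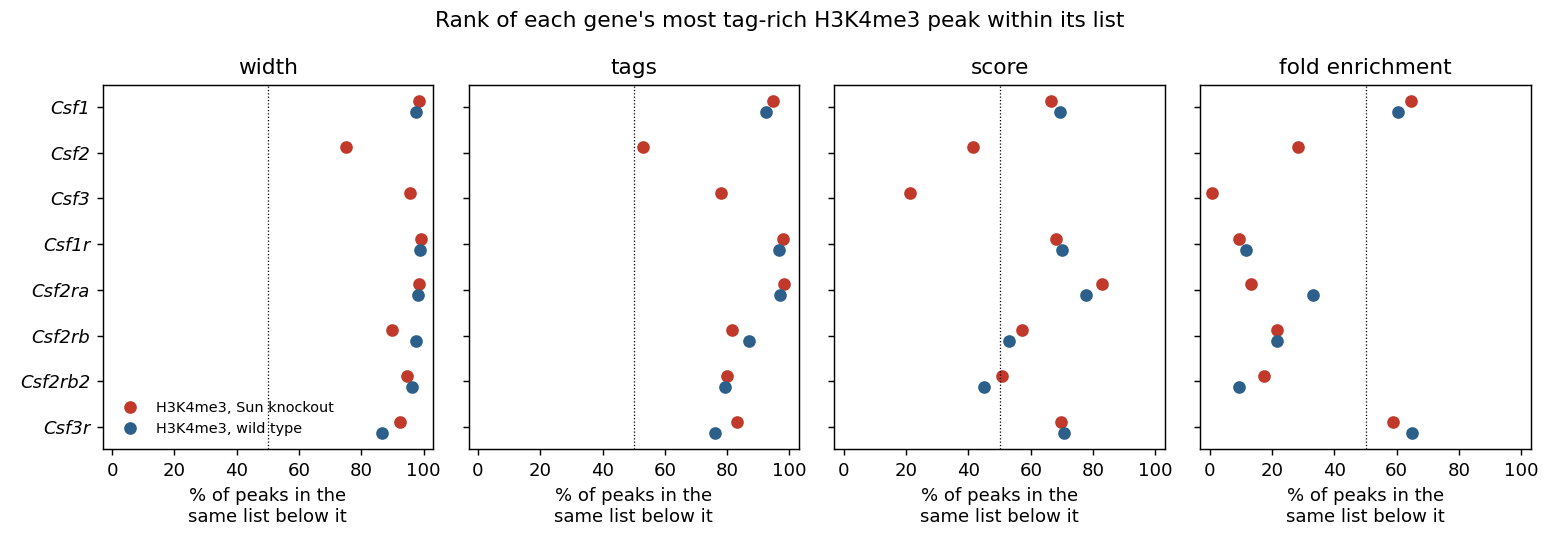
Rank of the most tag-rich H3K4me3 peak of each gene within its own list, as the percent of peaks below it in width, tags, score and fold enrichment, for Sun knockout and wild type. The dotted line marks the median peak. Width ranks lie at 74.98% or higher in both genotypes, while fold enrichment ranks lie below 50% for all but Csf1 and Csf3r.

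Most genes known to work with these receptors were also marked. Of 54 listed genes (related ligands and receptors, signalling genes, feedback and target genes, and transcription factors that act on the receptor genes), 50 had H3K4me3 in both genotypes. Over all protein-coding genes the share was 68.5%. Il3 was marked in the knockout alone, Il5ra, an interleukin 5 receptor gene, in the wild type alone with 21 tags, and Il5 and Bcl2a1a in neither. By the most tag-rich region of each gene, 1 of 49 was at least 2-fold higher and 0 were 2-fold lower in the knockout, where 0.862% and 0.745% of 14503 protein-coding genes were 2-fold higher and lower.

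The gene past 2-fold was Pdgfrb, a receptor tyrosine kinase gene of the same class as Csf1r that lies beside it on chromosome 18. It held 188 tags over 2648 bp in the knockout and 62 tags over 717 bp in the wild type, a ratio of 2.09 (1.67 to 2.53) in tags. The knockout peak reached farther to one side of the wild-type peak. Of the other related genes Flt3, the receptor gene for the Flt3 ligand, was at 0.55 (0.23 to 0.88), Kitl, the ligand gene of the stem cell factor receptor, at -0.04 (-0.28 to 0.20), and Flt3l at -0.01 (-0.24 to 0.23). The median of the 6 related genes with a ratio was 0.17.

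The 20 signalling genes had a median of -0.03. Stat5a, which acts downstream of the Csf2 receptor, held 448 tags in the knockout and 423 in the wild type, at 0.57 (0.38 to 0.77). Tyrobp, an adaptor gene that works with Csf1r, had the lowest region ratio, -0.42 (-0.60 to -0.25), from 404 tags in the knockout and 760 in the wild type, but the knockout peak of that region lay outside the gene's window. Peaks in or reaching into the window held 139 tags in the knockout and 1030 in the wild type. Next lowest was Lyn at -0.26 (-0.47 to -0.05). The peak of Stat5a was wider, and that of Lyn narrower, in the knockout.

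Among 14 feedback and target genes the 13 with a ratio had a median of -0.06. Cish, a feedback inhibitor of cytokine receptors, had 223 tags in the knockout and 177 in the wild type, at 0.82 (0.53 to 1.12), and Socs1, another such inhibitor, was at 0.31 (0.15 to 0.46). Mcl1, a survival gene, had 229 tags in the knockout and 521 in the wild type, at -0.70 (-0.93 to -0.47), and Dusp6, a phosphatase gene of the ERK pathway, was at -0.43 (-0.63 to -0.24). Scaled to filtered tags, Mcl1 stood at -1.04, past 2-fold. These ratios went with the widths of the peaks. In the knockout and wild type the peak had 2342 and 1028 bp at Cish and 3862 and 2729 bp at Socs1. At Mcl1 it had 1631 and 2905 bp, and at Dusp6 2486 and 3503 bp. Ratios in tags per kb are not given for these genes. The 10 transcription factor genes had a median of 0.01, from Gfi1 at 0.37 (0.22 to 0.52) and Fli1 at 0.34 (0.17 to 0.51) to Irf8 at -0.18 (-0.33 to -0.04) and Cebpb at -0.10 (-0.22 to 0.02). Among these the Fli1 peak was wider, and the Irf8 peak narrower, in the knockout. For the 6 member genes marked in both genotypes the median region ratio was 0.24, and it was -0.02 over all protein-coding genes.

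An H3K9me3 peak was listed at 2 of 8 genes in the knockout (Csf2ra and Csf1r) and at 2 of 8 in the wild type (Csf2ra and Csf1), shares near the background, where 29.7% of protein-coding genes had one in the knockout and 27.2% in the wild type. Csf2, Csf3, Csf2rb, Csf2rb2 and Csf3r had none in either genotype. The peaks at Csf1r and Csf1 held 15 and 17 tags, close to the median of 17 tags in the knockout list and 16 in the wild-type list.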

How the data were processed

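H3K4me3 and H3K9me3 were mapped in 1 library per genotype. The submitters' processing notes name MACS 1.4.2, DiffBind, CASAVA 1.4 and Bowtie 0.12.8 and the build mm10, with no roles. The authors called peaks per library with MACS 1.4.2 at a p-value cutoff of 1e-05 and without input, per the file headers. Filtered tags numbered 26748289 and 29681491 (H3K4me3, knockout and wild type) and 28586946 and 27727997 (H3K9me3), per the file headers. The counting intervals were computed from the tags in peaks, not from these depths. Each deposited peak has a count of tags, a fold enrichment, which is a linear ratio, a score, which is log10 of its p-value times -10, and other measures such as width in bp.

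Genes and promoters came from RefSeq tables of GRCm38.p6, the assembly of mm10. The tables gave no exons, and promoters and strand for 5 of the 8 genes, so Csf3, Csf1r and Csf2rb have no start position here. Peaks of both genotypes joined by overlaps of at least 1 bp made a region. Its summed tags gave the ratio, where both genotypes had a peak and 1 held at least 50 tags. Matched pairs overlapped only each other, by at least 50% reciprocally. Intervals are exact Poisson for tags and exact conditional binomial for ratios. The tools were pandas 2.3.3, scipy 1.17.1, numpy 2.4.6 and matplotlib 3.10.9 under Python 3.11.15. The ratios were tested on simulated data that kept the bounds of the wild-type peaks, so differences in peak width were not covered. The members and lists were chosen with earlier results of these data known. The genes named were all members, genes that share a peak with one, the 3 nearest to Csf1r and to Csf3, and, per list, those marked in 1 genotype and the 2 highest and 2 lowest ratios; 1 gene so chosen is not reported here. Alternatives were other windows, scores, overlaps, scalings, tag minimums and joining distances.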

Additional observations from a re-analysis of the deposited data

How the results depend on the processing

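With 20 values and 89 alternatives, 72 alternatives stayed close to the reported value and 17 moved it. None turned a 2-fold difference round, since there was none. A ratio counted as close inside the counting interval of the reported value, so its sign could differ. Csf2rb2, for instance, went from 0.12 to -0.12 under scaling to library totals. A count was close if it changed by no more than a set factor or stayed the same, as many did at 0. No paired analysis was possible because each group has 1 library, and for the same reason no replicate could be left out. Depth limits weak peaks: a place without a listed peak is not a place without tags. With a score of at least 100, the genes with an H3K9me3 peak were 1 in the knockout and 1 in the wild type, against 2 and 2, and the knockout H3K4me3 peaks without a partner were 1, against 5. Scaling to filtered tags, which moves the median region by -0.34, gave log2 ratios of -0.085 for Csf1, -0.12 and -0.054 for the gene ends of Csf1r and Csf2ra, -0.56 for Csf2rb, -0.22 for Csf2rb2, 0.091 for Csf3r and -0.30 for the Mrps15 peak. Scaling to library totals gave 0.017 for Csf1, -0.018 for Csf1r and 0.048 for Csf2ra. Tags per covered kb gave 0.038 for Csf1, 0.024 for Csf1r, 0.081 for Csf3r and 0.32 for Csf2rb, where the division by width itself made the change. The share of filtered tags inside H3K4me3 peaks also differed, 14.0% in the knockout and 17.8% in the wild type. The cause of the shift between scalings was not tested.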
